A study of Mus musculus with 9 samples.

Results

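Genes that encode the factors of translation termination, ribosome rescue and poly(A) tail binding were followed through RNA immunoprecipitation sequencing (RIP-seq) of activated mouse B cells: Etf1, Gspt1, Abce1, Pelo, Hbs1l, Pabpc1, Pabpc4, Paip1 and Paip2. They were chosen by name, with earlier results of these data known, and all 9 were found among the 27179 genes of the count table. All 9 were also among the 13129 genes with enough counts to be tested. Their own mRNAs were measured, not the proteins. Relative to the other RNAs of a library, 7 of the 9 were lower with phosphorylated UPF1 (p-UPF1) than with the control antibody. This compares with 42.2% of all genes tested, and Pabpc1, Pelo and Gspt1 were the lowest of the 9. None of the 9 reached the level set for a p-UPF1-bound RNA, which 6.25% of all genes tested reached. Nothing is read from the absence of such a gene among 9. Both counts depend on the scaling. When mitochondrial transcripts served as the fixed reference, all 9 were higher with p-UPF1 and all 9 reached the level for a bound RNA.

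A ribosome that meets a stop codon is released by eRF1 (Etf1) together with the GTPase eRF3 (Gspt1), and ABCE1 then splits the ribosomal subunits. PABPC1 on the poly(A) tail contacts eRF3 and is thought to favour normal termination, whereas a stop codon far from the tail leaves room for UPF1, an RNA helicase that binds the release factors, is phosphorylated, and marks the mRNA for nonsense-mediated decay (NMD). Pelota (Pelo) and HBS1L resemble eRF1 and eRF3 but act on ribosomes stalled without a stop codon, and PAIP1 and PAIP2 bind PABPC1, the first promoting translation and the second displacing PABPC1 from RNA.

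The study asked which RNAs are attached to p-UPF1 in splenic B cells. The cells were CD43- spleen cells of wild-type mice, cultured for 72 h with CD40L at 5 ug/mL, anti-IgM at 10 ug/mL and IL-4 at 20 ng/mL. For the first stimulus the methods give an antibody to CD40 in place of the ligand. All 3 groups came from cells treated in this way and differ only in how the RNA was taken: from the whole lysate (input), from a precipitate with normal rabbit IgG, or from a precipitate with an antibody to UPF1 phosphorylated on a serine. Each group had 3 libraries. The labels give no strain, age or sex of the mice. For the study as a whole, the methods give adult, age-matched mice of both sexes and call the plotted data points biological replicates. Neither source says which animals or cultures the 9 RIP-seq libraries came from, and the P values below measure the spread between these libraries. The model is 1 mature, stimulated cell population, and no library lacks UPF1. Because the libraries are bulk, fewer cells and less RNA per cell cannot be told apart.

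Total counts were 19873687 to 24945286 in the input, 17372510 to 18550508 in the IgG and 23251890 to 24802119 in the p-UPF1 libraries. The summed level of 6 B cell markers was 3200 to 3220 CPM in input, 2490 to 2580 CPM in IgG and 2400 to 2470 CPM in p-UPF1 libraries. CPM stands for counts relative to the library total after TMM scaling, which assumes that most genes do not change. In input, 6 T cell markers summed to 1.21 to 1.53 CPM. Markers of NK cells, erythroid cells, dendritic cells and platelets, 4 genes each, summed to at most 3.73, 1.09, 5.42 and 2.25 CPM in any library. Of 6 myeloid markers, 1 was above 1 CPM in input: Adgre1, at a mean of 131 CPM. The next highest, Itgam, was at 0.22 CPM. The sum of the 6, nearly all of it Adgre1, was 128 to 139 CPM in input. It was 86 to 91.5 CPM in IgG and 57.2 to 59.4 CPM in p-UPF1 libraries, and its part in the results was not tested. Over the genes tested, 40.4% were called higher and 42.2% lower in p-UPF1 than in IgG at an adjusted P under 0.05, so a call alone sets no gene apart, and sizes are given throughout. All fold changes are relative to the other RNAs of a library. When libraries were instead scaled to equal counts of mitochondrially encoded mRNA, the median of all genes moved by 4.69 on the log2 scale over IgG, and 13051 genes were called higher and 4 lower in place of 5299 and 5546.

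Translation of each of these mRNAs itself ends at a stop codon, which eRF1 reads. The 9 bases before it and the 15 after it are given for the members whose annotated stop may be shown here, and for Paip2b, a relative of Paip2 described further on (GENCODE M21 on GRCm38, transcript strand, stop codon in capitals).
Gspt1, stop at chr16:11220827-11220829 (-): gagaaagacTAAgcattttcttgatga
Abce1, stop at chr8:79685230-79685232 (-): ttggatgatTAGattgagtctgaactt
Pelo, stop at chr13:115088530-115088532 (-): gaagaggatTAAgactggcagttaata
Hbs1l, stop at chr10:21368298-21368300 (+): ataaaagagTGAcggtccggtcctcat
Pabpc4, stop at chr4:123298079-123298081 (+): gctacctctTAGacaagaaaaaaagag
Paip1, stop at chr13:119457079-119457081 (+): cgaaaacagTAAagttaaatttgagga
Paip2b, stop at chr6:83808836-83808838 (-): gtgaagtacTGAgctgttggaagcttc
Over all 9 genes, 4 ended in TAA (Gspt1, Pelo, Pabpc1 and Paip1), 3 in TAG (Etf1, Abce1 and Pabpc4) and 2 in TGA (Hbs1l and Paip2). Among the 11874 tested genes with a coding transcript, 25.1% ended in TAA, 23.4% in TAG and 51.5% in TGA.

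Compared per length, with CPM divided by the length in kilobases of all annotated exons of a gene, the mRNAs differed widely in abundance. This length was 7322 bases for Hbs1l, 5401 for Paip1 and 1572 for Pelo. The coding transcript chosen for each had 2733, 2551 and 1600 bases, so the order between genes depends on the length used. In input, Pabpc1 stood at 1180 ± 18.4 CPM per kb (SD, n = 3), above 99.7% of the genes tested. Etf1 followed at 141 ± 2.91, and then came Pabpc4 at 87.8 ± 0.94 and Abce1 at 85.5 ± 1.67 CPM per kb. The ranges of these last genes, 87.2 to 88.9 and 83.7 to 86.8, lay side by side without overlap. Paip2 at 65.4 ± 1.75 and Gspt1 at 48.1 ± 1.22 CPM per kb were lower again. On this length Hbs1l (17.3 ± 0.261), Pelo (14.7 ± 0.6) and Paip1 (14 ± 0.0305) were the least abundant. The input range of Paip1 (14 to 14.1) lay below that of Pelo (14.2 to 15.4), and the order per transcript length was not computed. In p-UPF1 libraries the order changed. Pabpc1 was still the highest at 226 ± 16.8 CPM per kb, Abce1 (82.8 ± 2.23) stood above Pabpc4 (50.2 ± 1.48), and Pelo was the lowest at 4.02 ± 0.592.

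**Figure D1:**
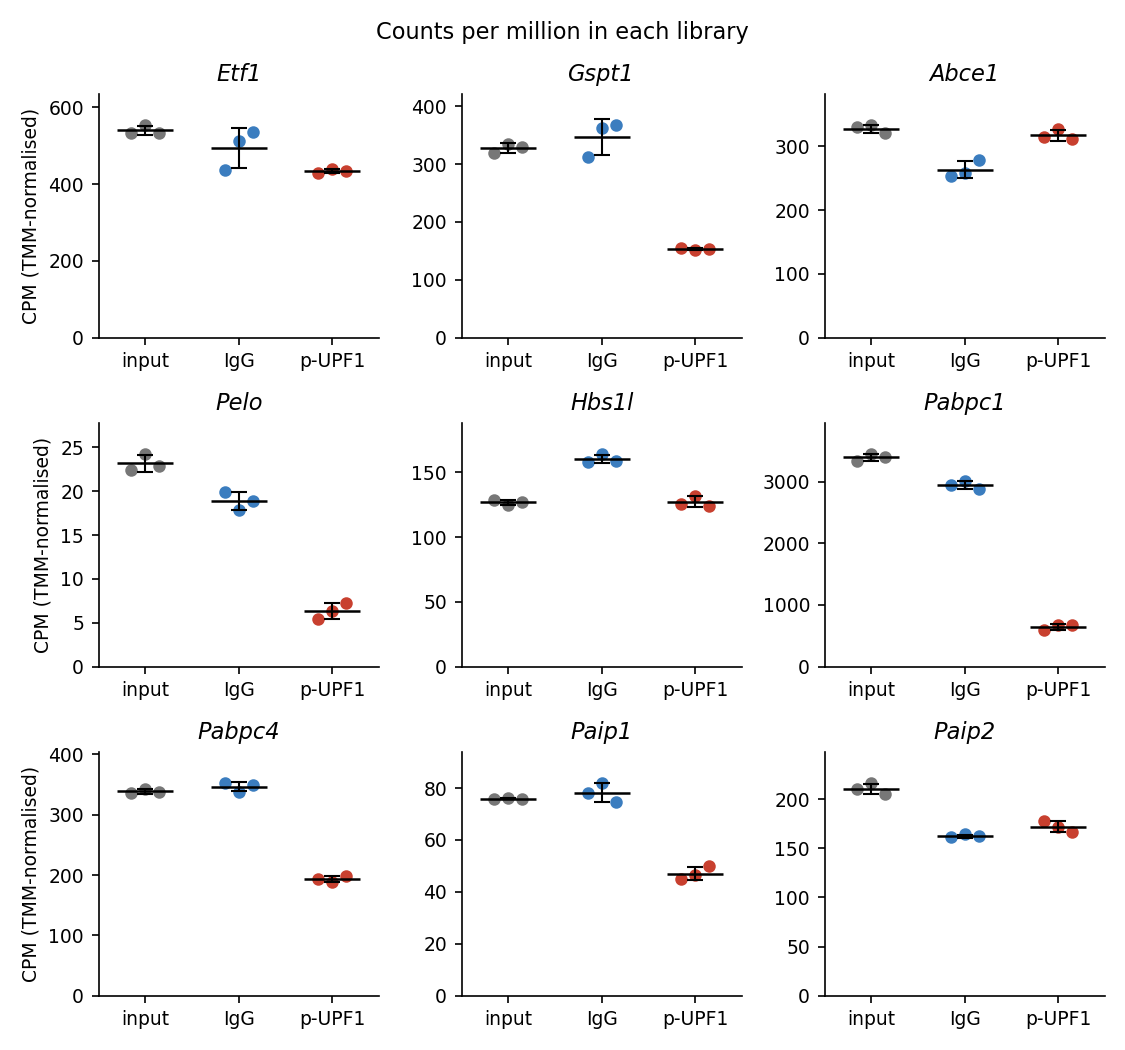
TMM-normalised CPM of the 9 genes in each library (y axis, from 0, own scale per gene) by group (x axis); points are libraries, bars the mean and SD of 3 libraries. The p-UPF1 libraries lay below both other groups for Gspt1, Pelo, Pabpc1, Pabpc4 and Paip1, and at the input level for Abce1 and Hbs1l.

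Of the release factor pair, Gspt1 was depleted from the p-UPF1 precipitate and Etf1 hardly so. Gspt1 (chr16:11216240-11254325) was at 155, 152 and 153 CPM in the p-UPF1 libraries, at 312, 362 and 367 in IgG and at 319, 335 and 330 in input. The p-UPF1 libraries lay well below the other 6, which overlapped each other. Gspt1 thus had a log2 fold change of -1.18 ± 0.05 (SE) over IgG (adjusted P = 2.81e-12) and -1.10 ± 0.05 over input (adjusted P = 6.27e-12). Adjusted P values are Benjamini-Hochberg values of edgeR's quasi-likelihood test unless another method is named. Each SE was worked back from that test, as the size of the log2 fold change divided by the square root of the F statistic. Ranges of adjusted P over alternatives pool the methods. Etf1 (chr18:34902785-34932008) was at 429, 440 and 434 CPM in p-UPF1, at 436, 513 and 536 in IgG and at 533, 553 and 534 in input. One IgG library lay within the p-UPF1 range. Etf1 had a log2 fold change of -0.19 ± 0.06 over IgG (adjusted P = 0.00617) and -0.32 ± 0.06 over input (adjusted P = 8.6e-05), and without IgG library B the first became -0.15 with an adjusted P of 0.0502. Over the alternatives other than equal mitochondrial mRNA, the adjusted P over IgG ranged from 5.06e-07 to 0.0502.

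The ratio of 2 genes within a library does not depend on scaling. These ratios were chosen after the values were seen, 6 in all, and with 3 libraries against 3 the smallest two-sided P an exact permutation test can give is 0.1, so each P of 0.1 below is that limit before any correction. Counts of Gspt1 per count of Etf1 were 0.361, 0.345 and 0.354 in p-UPF1, 0.715, 0.705 and 0.686 in IgG and 0.599, 0.607 and 0.617 in input. The 3 groups did not overlap, and the ratio was 1.99-fold lower in p-UPF1 than in IgG (exact permutation P = 0.1).

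Abce1, the ribosome-splitting ATPase (chr8:79683442-79711740), was the 1 member called higher over IgG. It was at 314, 327 and 311 CPM in p-UPF1, at 254, 258 and 279 in IgG and at 330, 333 and 321 in input. Its p-UPF1 libraries lay above all IgG libraries but overlapped input. Its log2 fold change was 0.27 ± 0.04 over IgG (adjusted P = 2.39e-05) and -0.05 ± 0.04 over input (adjusted P = 0.308), and the IgG precipitate was itself below input (-0.31 ± 0.04, adjusted P = 1.44e-05). Over input, the value ran from -0.11 to 0.09 between alternatives and was called lower with library size alone and with upper-quartile factors. Per count of Etf1, Abce1 gave 0.733, 0.744 and 0.716 in p-UPF1, 0.583, 0.503 and 0.521 in IgG and 0.619, 0.602 and 0.6 in input (exact permutation P = 0.1 for p-UPF1 against IgG).

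The rescue pair also came apart. Pelo (chr13:115088355-115090158), which enters the empty decoding site of a stalled ribosome, was at 5.39, 6.32 and 7.25 CPM in p-UPF1, at 19.9, 17.8 and 18.9 in IgG and at 22.4, 24.2 and 22.9 in input. No library of one group reached the range of another. These levels rest on 128 to 160 counts a library in p-UPF1 and up to 552 in input, the fewest of the 9 genes. For Pelo the log2 fold change was -1.58 ± 0.10 over IgG (adjusted P = 4.03e-10) and -1.88 ± 0.10 over input (adjusted P = 2.57e-11). Pelo lies inside the gene Itga1, an integrin subunit, on the same strand, and shares no exonic base with it.

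Hbs1l (chr10:21295979-21368889), the GTPase partner of Pelota, was at 126, 132 and 124 CPM in p-UPF1, at 158, 164 and 159 in IgG and at 129, 125 and 127 in input. Here IgG was the group that stood apart, above both others. The log2 fold change of Hbs1l was -0.34 ± 0.04 over IgG (adjusted P = 1.06e-06) and 0.00 ± 0.04 over input (adjusted P = 0.949), while IgG exceeded input by 0.34 ± 0.04 (adjusted P = 4.32e-06). Between alternatives, the value over input ran from -0.06 to 0.14, and it was called higher with an IgG library as the TMM reference and with no filter on low counts. Hbs1l counts per Pelo count were 23.3, 20.9 and 17.1 in p-UPF1, 7.93, 9.23 and 8.42 in IgG and 5.76, 5.17 and 5.52 in input. All 3 groups were separate, with a 2.38-fold higher ratio in p-UPF1 than in IgG (exact permutation P = 0.1).

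Pabpc1, the main cytoplasmic poly(A)-binding protein, showed the largest depletion of the 9 genes. Pabpc1 (chr15:36595658-36609581) was at 592, 676 and 675 CPM in p-UPF1, at 2950, 3010 and 2880 in IgG and at 3340, 3440 and 3390 in input. The p-UPF1 libraries were far below the rest, and IgG was below input. The log2 fold change was -2.19 ± 0.05 over IgG (adjusted P = 2.1e-16) and -2.39 ± 0.05 over input (adjusted P = 6.34e-17), and 5.03% of the genes tested had a value as low or lower over IgG. Among cytosolic ribosomal protein genes, 76 of the 77 tested were lower in p-UPF1 than in IgG, against 42.2% of all genes, with a median log2 fold change of -2.81 against -0.03. The remaining one was Rpl7l1, a ribosomal protein-like gene, at 2.66 over IgG and 2.34 over input, which met the p-UPF1-bound criterion given further on.

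Pabpc4 (chr4:123282303-123298925), an inducible relative of Pabpc1, fell less. It was at 194, 188 and 199 CPM in p-UPF1, at 352, 338 and 349 in IgG and at 336, 343 and 337 in input. The p-UPF1 libraries were below the other 6, which overlapped. For Pabpc4 the log2 fold change was -0.84 ± 0.04 over IgG (adjusted P = 2.74e-12) and -0.81 ± 0.04 over input (adjusted P = 3.93e-12). Pabpc4 counts per Pabpc1 count were 0.327, 0.278 and 0.295 in p-UPF1, 0.119, 0.112 and 0.121 in IgG and 0.101, 0.0996 and 0.0995 in input, a 2.55-fold higher ratio in p-UPF1 than in IgG (exact permutation P = 0.1).

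The PABPC1 partners differed from each other. Paip1 (chr13:119428331-119460323), which links PABPC1 to the initiation machinery, was at 44.9, 46.5 and 49.8 CPM in p-UPF1, at 78.2, 81.8 and 74.6 in IgG and at 75.8, 76 and 75.8 in input. The p-UPF1 libraries were the lowest, and the log2 fold change was -0.73 ± 0.05 over IgG (adjusted P = 1.15e-09) and -0.69 ± 0.05 over input (adjusted P = 2.29e-09). Paip2 (chr18:35598610-35617186), the PABPC1 inhibitor, was at 178, 172 and 166 CPM in p-UPF1, at 161, 164 and 162 in IgG and at 210, 216 and 205 in input. Input was the highest group, and the p-UPF1 libraries lay just above IgG. The log2 fold change of Paip2 over IgG was 0.08 ± 0.04 (adjusted P = 0.0802). Apart from equal mitochondrial mRNA it ran from -0.08 to 0.12 between alternatives, with adjusted P from 0.0181 to 0.91, and DESeq2 called it higher (0.10, adjusted P = 0.0379), as did the fits without IgG library B (0.10) or without p-UPF1 library C (0.11). Over input Paip2 was lower at -0.29 ± 0.04 (adjusted P = 4.18e-06), and so was IgG at -0.37 ± 0.04 (adjusted P = 1.36e-06).

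Paip2b, the paralog of Paip2, went another way and met the criterion of the methods for a p-UPF1-bound RNA, which asks for log2 values of 1 or more against IgG and of 2 or more against input, both at an adjusted P under 0.05. Paip2b was at 376, 394 and 390 CPM in p-UPF1, at 64.3, 64.9 and 72.3 in IgG and at 64, 64.1 and 61 in input. IgG and input lay together and the p-UPF1 libraries far above, at a log2 fold change of 2.53 ± 0.05 over IgG (adjusted P = 7.1e-17) and 2.62 over input (adjusted P = 3.37e-17). Paip2b counts per Paip2 count were 2.12, 2.3 and 2.35 in p-UPF1 against 0.399, 0.394 and 0.445 in IgG and 0.305, 0.296 and 0.297 in input. The ratio was 5.46-fold higher in p-UPF1 than in IgG (exact permutation P = 0.1).

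**Figure D2:**
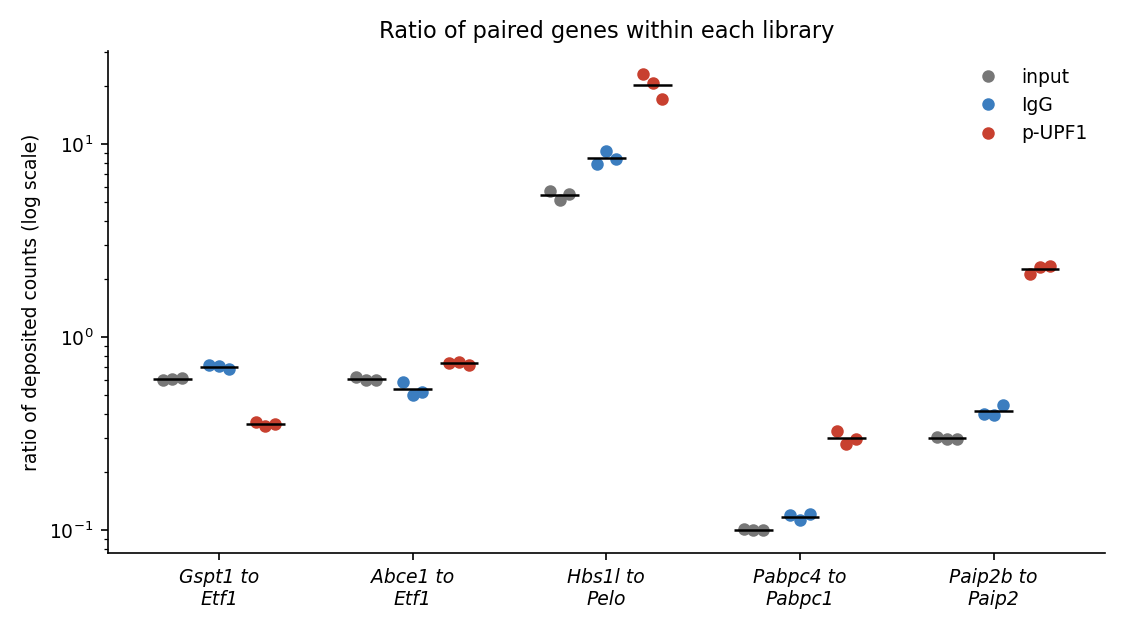
Ratio of the deposited counts of paired genes (y axis, log scale) for 5 pairs (x axis) in the 3 input, 3 IgG and 3 p-UPF1 libraries; points are libraries, bars group means. Gspt1 per Etf1 was lowest in p-UPF1, and Hbs1l per Pelo, Pabpc4 per Pabpc1 and Paip2b per Paip2 were highest there.

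Counted together, 1 of the 9 genes was higher and 7 were lower in p-UPF1 than in IgG, against 40.4% and 42.2% of all genes tested. The median log2 fold change of the 9 was -0.73, and that of all genes -0.03. At a log2 fold change of -1 or less with an adjusted P under 0.05 stood 3 of the 9 (Gspt1, Pabpc1 and Pelo), against 21.9% of all genes, and at 1 or more stood 0 of the 9, against 22.2%. None met the p-UPF1-bound criterion, which 6.25% of all genes met, and none did with DESeq2 or limma-voom either. Over input, 0 were higher and 7 lower, against 40.8% and 42.6% of all genes, with a median of -0.69 for the 9. At an unadjusted P under 0.05 in edgeR, and with DESeq2 and limma-voom, the count higher over input was also 0. In IgG over input, 1 was higher (Hbs1l) and 4 were lower (Pabpc1, Paip2, Abce1 and Pelo), against 18.2% and 34.7% of all genes. This balance turned with the scaling. With library size alone, and with TMM referred to either kind of control library (input or IgG), 4 were higher (Hbs1l, Gspt1, Pabpc4 and Paip1) and 2 lower (Paip2 and Abce1). Pabpc1 was then at -0.10 to -0.09 (adjusted P = 0.0828 to 0.114) and Pelo at -0.20 to -0.18 (adjusted P = 0.0914 to 0.115), and neither was called. With only 9 genes, these counts describe the members and were not tested as a set, and the 3 comparisons share libraries. Under equal mitochondrial mRNA all 9 were called higher in p-UPF1 than in IgG, while their order relative to the median of all genes stayed, from -2.15 for Pabpc1 to 0.30 for Abce1.

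**Figure D3:**
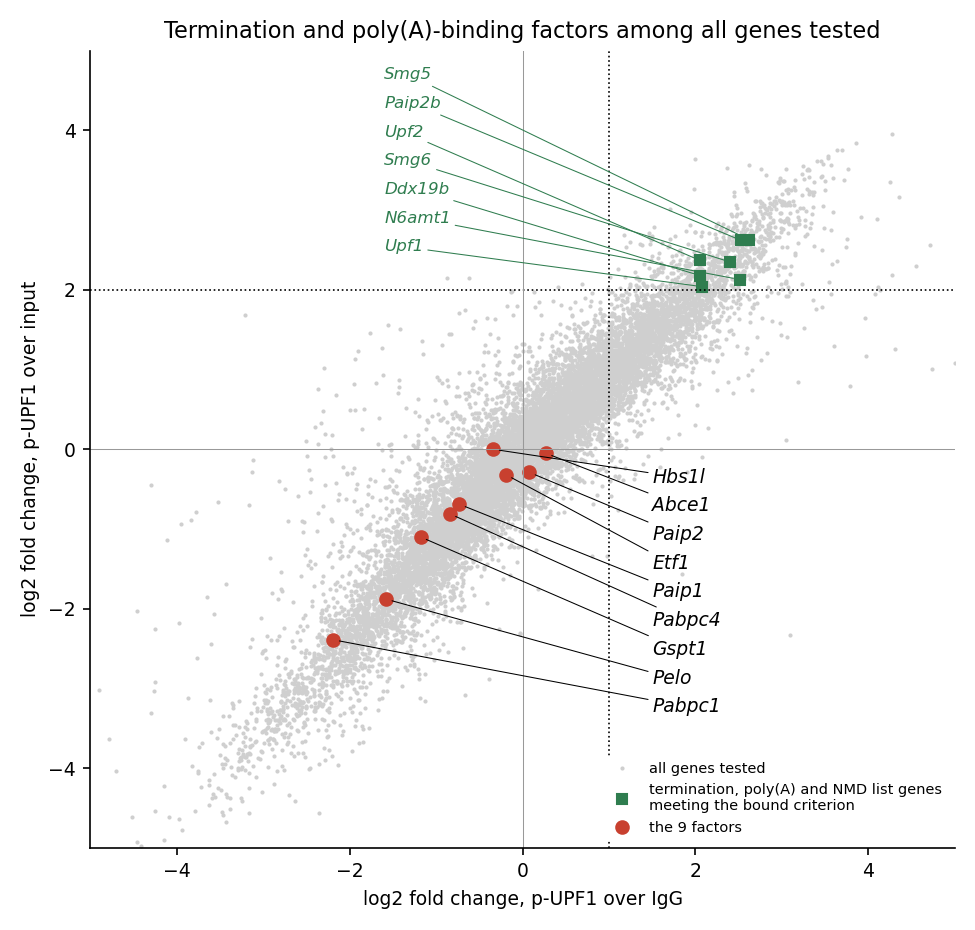
Log2 fold change of p-UPF1 over IgG (x axis) and over input (y axis) for all genes tested (grey; 26 of 13129 fall outside the axes), the 9 factors (red) and the 7 genes of the termination, poly(A) and NMD lists that met the p-UPF1-bound criterion (green); dotted lines mark the criterion. The 9 factors run from Pabpc1 at the lower left to Abce1 near the origin, none beyond the dotted lines.

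Of 13 other factors of termination and recycling, 6 were higher and 5 lower in p-UPF1 than in IgG, near the 40.4% and 42.2% of all genes, with a median log2 fold change of 0.27, so the counts do not set these genes apart. The highest were N6amt1, the catalytic subunit that methylates eRF1, at 2.51 ± 0.10 (adjusted P = 4.64e-13), and Ddx19b, an RNA helicase that helps eRF1 and eRF3 at the stop codon, at 2.05 ± 0.06 (adjusted P = 3.41e-15). Both met the p-UPF1-bound criterion. Among genes of at least 10 CPM on average, Mcts1, a recycling and re-initiation factor, was the lowest at -1.46 ± 0.08 (adjusted P = 2.73e-11), followed by Trmt112, the activator of N6amt1, at -1.06 ± 0.08 (adjusted P = 2.72e-09). The 2 subunits of the eRF1 methyltransferase thus moved in opposite directions. Gspt2, the retrogene paralog of Gspt1, was scarce at 2.03 ± 0.0942 CPM in input and 0.841 ± 0.172 in p-UPF1, and fell by 1.57 ± 0.25 over IgG on the log2 scale (adjusted P = 2.16e-05).

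Of 24 genes of stalled ribosome rescue and quality control, 9 were higher and 11 lower, with a median of 0.00, again near the 40.4% and 42.2% of all genes, and none was p-UPF1-bound, against 6.25%. Ascc2 and Eif4e2, parts of the complex that splits collided ribosomes and of the complex that blocks initiation on their mRNA, were the highest at 1.19 ± 0.05 and 1.13 ± 0.05. Edf1, a sensor of collided ribosomes, was the lowest at -2.03 ± 0.05 (adjusted P = 1.42e-15), followed by Wdr61, a subunit of the Ski complex, at -1.23 ± 0.06. Of 6 mitochondrial termination and recycling genes, too few to set against those shares, 2 were higher and 4 lower, with a median of -0.39, from Mrpl58, the mitoribosomal peptidyl-tRNA hydrolase, at -2.40 ± 0.10 to Mtrf1l, a mitochondrial release factor, at 1.39 ± 0.11. Between them, Mrrf, the recycling factor, was at -0.33 ± 0.08 and Gfm2, its GTPase partner, at 0.28 ± 0.06.

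Of 26 listed poly(A)-binding proteins and partners of PABPC1, 21 were tested, and 4 were higher and 16 lower in p-UPF1 than in IgG, against 40.4% and 42.2% of all genes, with a median of -0.35. The list was not tested as a set. Paip2b was the 1 of them that met the bound criterion. Pan3, a subunit of the PABPC-stimulated deadenylase, was next at 0.74 ± 0.05 (adjusted P = 1.52e-10). Tob1, which joins PABPC1 to another deadenylase, and Tnrc6b, a microRNA effector that binds PABPC1, were the lowest at -1.84 ± 0.10 (adjusted P = 2.98e-11) and -1.44 ± 0.07 (adjusted P = 1.26e-11). Pabpn1, the nuclear poly(A)-binding protein, was at -1.36 ± 0.07 (adjusted P = 9.8e-12), with 127, 99.3 and 107 CPM in p-UPF1 against 302, 275 and 279 in IgG. Pabpc1l, an oocyte paralog of Pabpc1, was at 0.614 CPM in input and did not pass the test over IgG (0.19 ± 0.41, adjusted P = 0.675).

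For comparison, 7 of 9 genes of NMD factors were higher in the p-UPF1 precipitate than in IgG and 2 lower (Upf3a and Smg8), against 40.4% and 42.2% of all genes, with a median of 1.21, and 4 met the bound criterion (Upf1, Upf2, Smg5 and Smg6), against 6.25%. This list was not tested as a set either. Upf1 itself was at 505, 500 and 505 CPM in p-UPF1 and 121, 115 and 122 in IgG (log2 fold change 2.08 ± 0.04, adjusted P = 3.98e-17), and its counts per count of Etf1 were 1.18, 1.14 and 1.16 in p-UPF1 against 0.278, 0.224 and 0.227 in IgG. The mRNA of UPF1 was thus recovered 4.79 times more per Etf1 mRNA with p-UPF1 than with IgG (exact permutation P = 0.1).

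**Figure D4:**
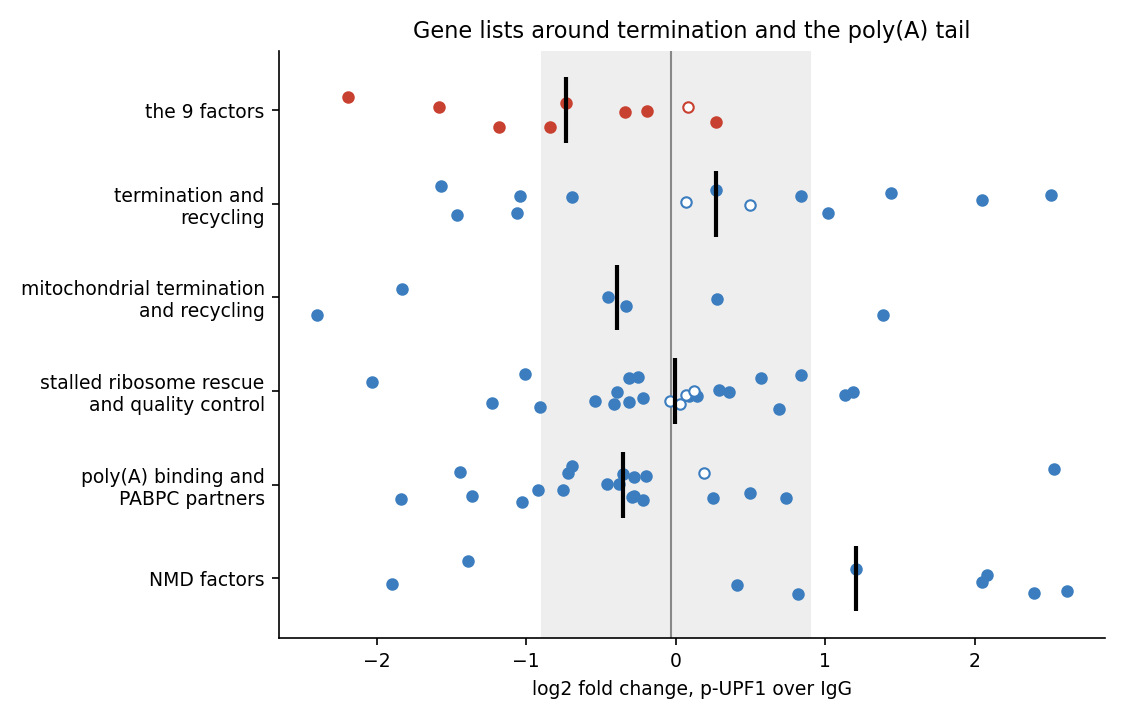
Log2 fold change of p-UPF1 over IgG (x axis) for the tested genes of each list (rows; vertical scatter within a row is for legibility); filled points had an adjusted P under 0.05, black bars are list medians, and the grey line and band are the median and middle 50% of all genes tested. The 9 factors have a median of -0.73, the NMD factors one of 1.21.

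The transcripts of the 9 genes were compared on features that did not enter their choice. Their 3′ UTRs ranged from 175 bases in Pelo, longer than or equal to 9.41% of tested genes, to 2203 bases in Etf1, at the 76.8th percentile. Over 11773 tested genes, 3′ UTR length and the log2 fold change over IgG had a Spearman's rho of 0.33, which is across genes of the same libraries, and genes are not independent replicates. In 4 classes of equal size by 3′ UTR length, from the shortest up, the medians were -0.73, -0.02, 0.43 and 0.36. Of the 9 genes, 8 were below the median of their own class, which by definition has as many genes below it as above. The count rests on the same fold changes over IgG as the counts given before. The exception was Paip2 (932 bases), at 0.08 in the second class. Pabpc1 (439 bases) was in the second class too, 2.17 below its median on the log2 scale, and so were Gspt1 (775 bases), 1.16 below, and Hbs1l, 0.32 below. In the shortest class, Pelo was 0.85 and Pabpc4 (332 bases) 0.11 below the median. Paip1 (1137 bases) was 1.16 and Abce1 (1768 bases) 0.16 below that of the third class, and Etf1 was 0.55 below that of the longest. These counts describe the members and were not tested. Paip2b had 3435 bases, at the 89.7th percentile.

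**Figure D5:**
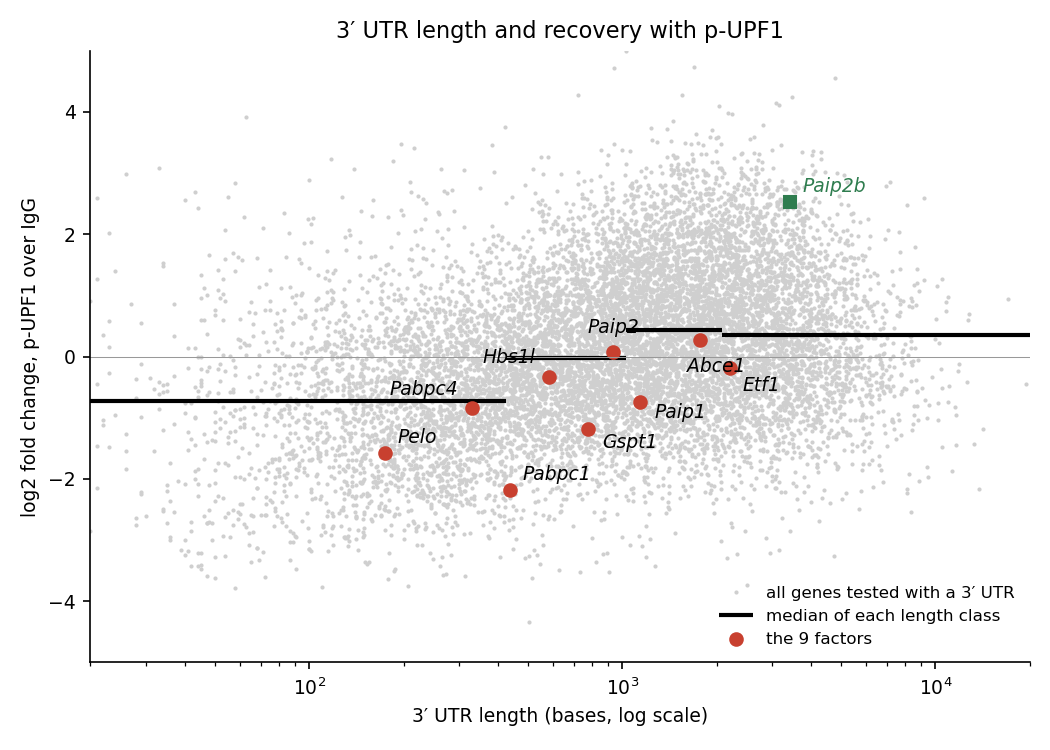
Length of the 3′ UTR (x axis, bases, log scale) and log2 fold change of p-UPF1 over IgG (y axis) for tested genes with an annotated 3′ UTR (grey; 41 of 11773 fall outside the axes), the 9 factors (red) and Paip2b (green); black bars are the medians of the 4 length classes. All 9 factors but Paip2 lie below the bar of their class, Pabpc1 the farthest.

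The GC content of the 3′ UTR ran from 28.9% in Pabpc1, lower than in all but 1.6% of tested genes, and 29.8% in Paip1 to 45.6% in Hbs1l, against a median of 44.7%. Over 11614 genes, its Spearman's rho with the log2 fold change over IgG was 0.31. Coding length, from 375 bases in Paip2 to 2049 in Hbs1l, had a rho of 0.13. An exon junction more than about 50 bases after the stop codon is a known NMD feature, and 0 of the 9 chosen transcripts had one. They were chosen among transcripts that GENCODE classes as protein-coding, so those it classes as NMD substrates were left out beforehand. Nothing is read from this count. The transcript of Pabpc4 had a junction 12 bases after the stop, and the others had none there. Of the 9 genes, 2 (Pabpc4 and Paip1) had 1 transcript each that GENCODE classes as an NMD substrate, against 29.4% of tested coding genes with at least 1. Counts per gene cannot tell such transcripts from the others.

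Some counts could hold reads of other loci. Transcripts with at least 95% identity over at least 100 bases were annotated by GENCODE at 10 other loci for Pabpc4, 3 for Hbs1l and 1 each for Etf1 and Pabpc1, and at none for Gspt1, Pelo, Abce1, Paip1 and Paip2. Of these loci, 1 of Hbs1l had its symbol matched in the count table, with counts equal to 1.94% to 2.1% of those of Hbs1l, depending on the group. At the locus of Pelo itself, GENCODE also annotates Gm49395 on the same strand and Gm10734 on the opposite strand, and both share sequence with Pelo. Gspt1 shared 239 exonic bases with 2610020C07Rik and Hbs1l 266 with 4930455C13Rik, both on the opposite strand, and Abce1 shared 5 with Anapc10. If the counting ignored strand, reads from these stretches cannot be assigned to either gene.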

How the data were processed

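RNA of activated splenic B cells was measured in 3 input, 3 IgG and 3 p-UPF1 libraries. The authors deposited raw read counts per gene, named by NCBI Gene number. The submitters' processing notes name cutadapt, HISAT2, featureCounts and mm10. The methods give mapping without strand for the RNA-seq of the same study, made with a directional kit. For the RIP-seq reads the use of strand in mapping and counting is not given in the sources used here. No molecular identifiers were used, so counting error understates the error. Of 27179 identifiers, 25275 matched a RefSeq symbol of GRCm38.p6, and 0.379% of counts had no symbol. Columns carry letters and were assigned to groups only. All pairs of libraries within a group differed by more than sampling noise.

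Genes were kept with filterByExpr (minimum count 10, minimum total 15; 99.9% of counts). A 3-group model was fitted to all 9 libraries with edgeR 4.0.16 in R 4.3.3 (TMM factors, quasi-likelihood test, Benjamini-Hochberg adjustment, 6 residual degrees of freedom). The script was tested on simulated counts. Alternatives used DESeq2 1.42.0, limma 3.58.1, other scalings and filters, each library left out and a block by column letter. Named genes were the 9 members, Gspt2, Pabpc1l, Paip2b, Pabpn1 and Upf1 by name, and from each related list the 2 highest and 2 lowest over IgG at 10 CPM or more and every gene meeting the bound criterion; Rpl7l1 and the markers were added. One item of the lists is not reported here, and list counts leave it out. Members, lists and tests were chosen with earlier results of these data known.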

Additional observations from a re-analysis of the deposited data

How the results depend on the processing

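The count columns share the letters A, B and C between groups, while GEO's labels number the replicates and do not tie the letters to them, so no fit with the labels' numbers was made. Deviations from the group means correlated at 0.03 to 0.1 between libraries of the same letter (9 pairs) and at -0.07 to 0.02 between those of different letters (18 pairs), and each library correlated best with its own letter. A replicate block by letter, chosen after seeing the data, left 1 member higher and 7 lower over IgG, 0 and 7 over input, and 0 bound, with 822 of all genes bound, and Abce1 over input at -0.05 (adjusted P = 0.286) and Paip2 over IgG at 0.08 (adjusted P = 0.0659). It added Etf1 to the members lower in IgG than in input (-0.13, adjusted P = 0.0292), giving 5 in place of 4, and changed no other call of a member. Equal mitochondrially encoded mRNA was the only setting run that turned the direction of a called member. Of the values not called in the report, Paip2 over IgG and Abce1 and Hbs1l over input took either sign under others. Under it the log2 fold changes over IgG were 4.50 for Etf1, 3.51 for Gspt1, 2.51 for Pabpc1, 3.86 for Pabpc4, 3.96 for Paip1, 3.11 for Pelo and 4.36 for Hbs1l. Over input they were 4.72 for Etf1, 3.94 for Gspt1, 2.65 for Pabpc1, 4.23 for Pabpc4, 4.35 for Paip1, 4.75 for Paip2, 4.99 for Abce1 and 3.16 for Pelo. For IgG over input they were 0.22 for Etf1, 0.14 for Pabpc1, 0.03 for Abce1 and 0.05 for Pelo.
Counts under that setting were 13051 higher and 4 lower of all genes over IgG, 13048 and 7 over input, 6116 and 1093 for IgG over input, and 12719 p-UPF1-bound. All 9 members were higher and 0 lower over IgG and over input, 9 were bound, and 5 were higher and 0 lower for IgG over input. Over IgG, with 0 lower in each list, 13 termination and recycling genes were higher and 13 bound, 6 and 6 mitochondrial ones, 24 and 24 of rescue and quality control, 21 and 21 poly(A) binding genes and partners, 9 NMD factors bound, and 75 ribosomal protein genes higher with 25 bound.

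A second member, Paip2, was called higher over IgG, giving 2 in place of 1, with DESeq2, with DESeq2 size factors, with an IgG library as the TMM reference, with a minimum of 1 CPM and with no filter. Hbs1l was called higher over input, giving 1 in place of 0, with an IgG library as reference and with no filter. For IgG over input, 4 members were higher with library size alone, with either reference for TMM and with only the 2 groups fitted, 3 with upper-quartile factors and with no filter, and 2 were lower in place of 4 with library size alone and with either TMM reference, where Pabpc1 and Pelo were no longer called. Library size alone gave 1 mitochondrial list gene higher in place of 2. With glmTreat, which tests against the fold thresholds themselves, 541 of all genes and 1 termination and recycling gene were bound in place of 820 and 2. Leaving out 1 library at a time gave 1 to 2 members higher over IgG and 1 to 2 higher for IgG over input. In the second comparison, Gspt1 was called higher without IgG library A (0.14), Etf1 lower without IgG library C (-0.20), and Pelo was no longer called without input library B (-0.27). Of the members' log2 fold changes under settings other than equal mitochondrial mRNA, 526 stayed on their side of the threshold, 30 crossed into it and 11 fell out. The cause was not tested. Depth limits Pelo most, at 128 counts in its lowest library.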
